A study of Mus musculus with 5 samples.

Results

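The Kruppel-like factors (KLFs) expressed in mouse embryonic stem (ES) cells were examined as a family of 9 genes, Klf2, Klf3, Klf4, Klf5, Klf6, Klf9, Klf10, Klf13 and Klf16, out of 19938 genes that the array measured under a single gene symbol. A gene entered when a probe set of the array carried its symbol alone, and each of the 9 genes had 1 such probe set, so no member has a second probe set to compare with. KLFs are transcription factors that bind CACCC and GC-rich boxes in DNA through closely related zinc fingers, and they differ mainly in the domains that recruit activators or repressors. In ES cells KLF2, KLF4 and KLF5 share many bound sites with the pluripotency factors and can partly replace each other in holding the naive state. The cytokine LIF acts on Klf4 through STAT3. Other KLFs serve as repressors or as early responders to hormones, growth factors and stress.

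RNA was measured on 5 microarrays of ES cells titled tetO-Satb1, in which doxycycline (DOX) switches on a transgene for the chromatin protein SATB1. The uninduced group had 2 arrays of cells without DOX, labelled control, and 3 arrays of cells exposed to DOX for 24 h, labelled Satb1 overexpression, formed the induced group. RNA of both groups was prepared 48 h after passaging in serum medium with LIF, and the comparison asks which transcripts differ once Satb1 is overexpressed. The series title speaks of WT cells, whereas all 5 array titles carry the transgene name, so the controls are taken as uninduced cells with the same transgene. The sample protocol describes irradiated feeder cells that were reduced by settling, while the design text names LIF alone. The labels do not say which cell line or how many clones were used, nor whether arrays of a group were separate cultures. The p-values therefore cover the spread between the arrays at hand, and that spread may be technical only. No array of DOX-treated cells without the transgene is in the design, so the effects of DOX and of SATB1 cannot be told apart. Because RNA came from whole cultures, fewer cells of a type and less RNA per cell cannot be told apart either. Values are log2 levels as deposited, without detection calls, so levels are compared between arrays of the same probe set and never between genes. With so few arrays, precision is limited throughout.

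Satb1 itself checked the labels. Its log2 level was 4.95 and 5.34 without DOX and 8.61, 8.79 and 8.68 with DOX, 11.7-fold higher. In limma over all genes its adjusted p was 0.229, so this fit did not call the induced gene itself. The adjusted p of Satb1 was 0.0038 when limma's prior spread came from genes whose 5 values were distinct, combined with the gene's own spread. The ES cell genes Pou5f1, Sox2 and Nanog differed little between the groups, with log2 changes of 0.042, -0.0047 and -0.056. The mean of 10 ES cell markers lay between 9.03 and 9.09 on all arrays. Among these markers, 7 decreased on average under DOX and 3 increased. Tdgf1 alone reached an unadjusted p under 0.05 (limma adjusted p = 0.770). Its log2 levels fell from 11.23 and 11.29 to 11.07, 11.09 and 11.01, a change of -0.21 ± 0.035 (standard error). Of 20 feeder fibroblast markers 19 were measured. Their mean level lay at 5.29 and 5.30 on the uninduced arrays and between 5.29 and 5.33 on the induced arrays, with induced array 3 the highest. No probe set of the array reads as 0 on this scale, the lowest deposited value being 0.79. The levels of these markers therefore do not show whether feeder RNA was present, and the part of feeder cells in the results was not tested. Many genes held exactly the same value on several arrays: in 80.8% of genes an induced array had the value of an uninduced array, and 9.03% had 5 distinct values. Such ties shrink the spread within a group.

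The start regions at hand were searched for boxes of the kind that KLF proteins themselves bind. Windows of 250 bases before the RefSeq start were at hand for 6 of the 9 genes, namely Klf2, Klf3, Klf4, Klf6, Klf9 and Klf13. Those of Klf4, which had the largest change, of its ES cell partner Klf2 and of the repressor gene Klf3, which held the most boxes, are shown from 5′ to 3′ on the strand of the gene (RefSeq, assembly GRCm38.p6). They lie at chr4:55532476-55532725 on the minus strand, chr8:72318812-72319061 on the plus strand and chr5:64803271-64803520 on the plus strand. Capitals mark each match to CACCC or GGGCGG on either strand, and matches can overlap by a base.
Klf4: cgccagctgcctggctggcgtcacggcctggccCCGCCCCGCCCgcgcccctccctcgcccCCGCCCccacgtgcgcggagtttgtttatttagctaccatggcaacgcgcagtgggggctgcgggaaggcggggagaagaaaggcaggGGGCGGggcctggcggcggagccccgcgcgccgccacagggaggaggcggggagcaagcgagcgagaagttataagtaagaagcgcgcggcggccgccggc
Klf2: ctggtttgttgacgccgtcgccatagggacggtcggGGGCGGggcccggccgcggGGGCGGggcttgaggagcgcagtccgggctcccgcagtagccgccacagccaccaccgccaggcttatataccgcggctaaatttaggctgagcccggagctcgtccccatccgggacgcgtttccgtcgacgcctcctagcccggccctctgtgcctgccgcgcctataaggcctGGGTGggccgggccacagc
Klf3: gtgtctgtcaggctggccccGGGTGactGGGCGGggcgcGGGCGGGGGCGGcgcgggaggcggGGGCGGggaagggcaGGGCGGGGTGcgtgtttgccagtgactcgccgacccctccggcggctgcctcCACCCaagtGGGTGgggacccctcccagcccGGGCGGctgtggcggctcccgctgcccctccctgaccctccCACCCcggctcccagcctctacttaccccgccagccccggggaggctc
The Klf4 window held 4 matches to GGGCGG, the first at -217 from the start, and no match to CACCC. The Klf2 window held 2 matches to GGGCGG and 1 to CACCC, and the Klf3 window held 6 and 5. Klf13 had 3 and 1, Klf6 had 1 match to GGGCGG alone and Klf9 had 1 match to CACCC alone. Over 32851 windows of the same length, 32.7% held GGGCGG and 52.0% held CACCC. The core of the element bound by the hypoxia factor HIF reads ACGTG or GCGTG. The letters ACGTG matched in Klf4, where the palindrome CACGTG begins at -182 and matches on both strands, and also in Klf6 and Klf9 (16.6% of all windows), and GCGTG matched in Klf3, Klf6, Klf9 and Klf13 (28.2%). TATAAA matched in none of the 6 (12.4%). The STAT letters TTCNNNGAA matched in Klf9 alone, at -33, against 7.02% of all windows. SATB1 prefers AT-rich DNA, and the 6 windows held between 21.6% and 40.4% A and T, below the median of 47.6% over all windows. Runs of A and T alone were at most 8 bases long in these 6 windows, a length reached in 39.8% of all windows. These matches describe letters only and say nothing about binding in these cells.

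No member passed the test for a difference between induced and uninduced cells, and the changes were small. Limma over all genes did not call Satb1 either. Not passing, here and for the lists below, therefore does not show that a gene was unchanged. Of the 9 genes, 7 had a lower and 2 a higher mean in induced cells, where over all genes 45.3% had a lower and 39.6% a higher mean. The median log2 change of the family was -0.049, against 0 over all genes. With limma over all genes, 0 of 9 members had an adjusted p under 0.05, and 0 had an unadjusted p under 0.05. Of all genes tested, 0.015% passed at the adjusted threshold and 1.55% had an unadjusted p under 0.05. A second fit, called the untied spread here, took only limma's prior spread from genes whose values were distinct on all arrays. Each gene's own spread, ties included, still entered that fit. It gave 0 of 9 members at an unadjusted p under 0.05, against 1.07% of all genes, and 0 after adjustment, against 0.00502%. The adjusted p was 0.770 for each member except Klf16, where it was 1 (limma). In 5 of the 9 genes the 2 uninduced arrays differed from each other by more than the groups differed. Only in Klf4 did the groups not overlap, which in the lower direction was so in 3.08% of all genes.

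**Figure D1:**
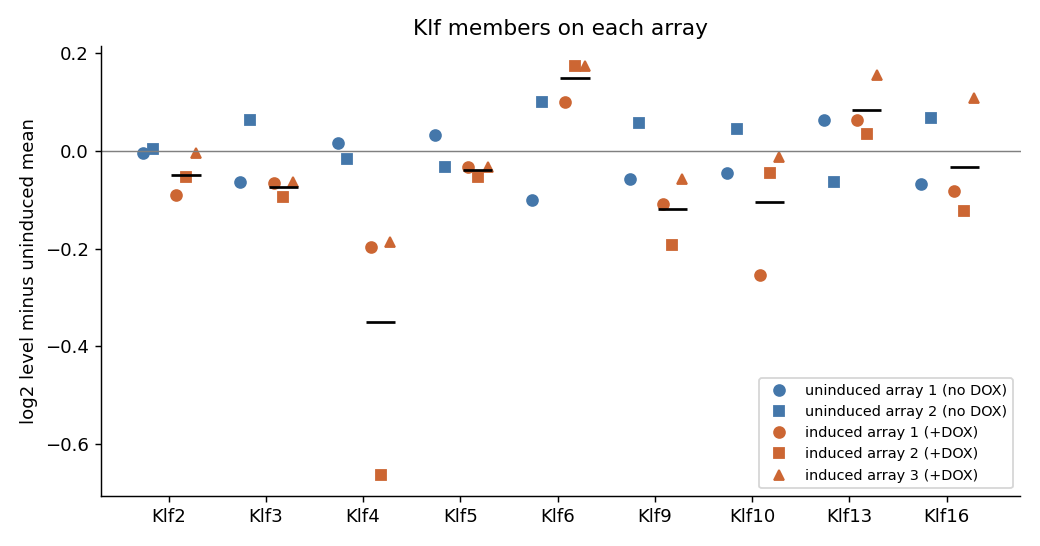
Log2 level of each Klf gene on each array (y axis) minus the mean of the 2 uninduced arrays of that gene, with uninduced arrays in blue, induced arrays in orange and the induced mean as a black bar. Klf4 shows the widest gap, with its 3 induced arrays below both uninduced arrays and induced array 2 far below the rest, while the arrays of the other 8 genes overlap between the groups.

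The intervals show what size of change the spread between these arrays leaves possible. They may be too narrow for change between cultures, since ties shrink the spread and it may be technical only. The 95% interval of the log2 change lay within 1 of 0, which is less than 2-fold either way, in all 9 members, under both fits. It lay within 0.5 of 0 in 8 of 9 members in each fit, Klf4 being the exception.

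**Figure D2:**
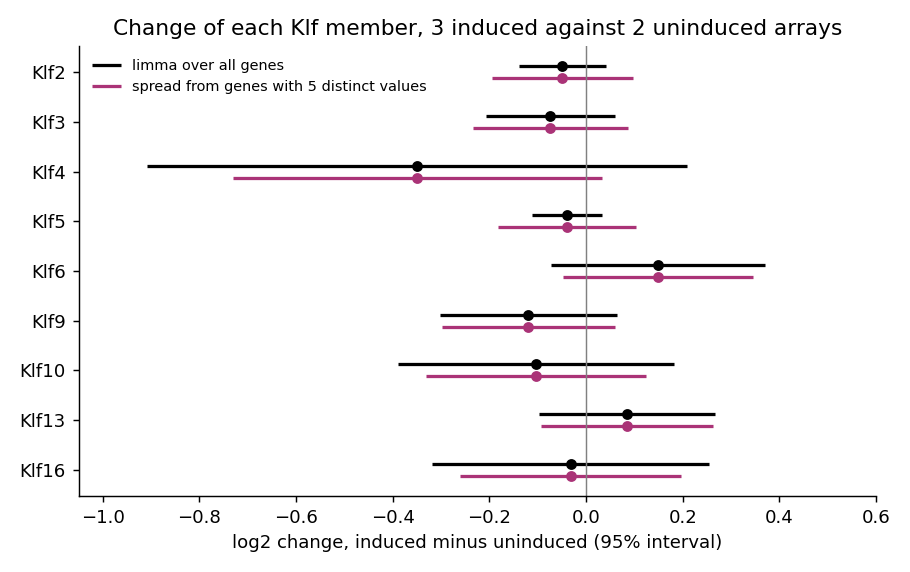
Log2 change of each Klf gene, induced minus uninduced (x axis), with its 95% interval in black from limma over all genes and in purple from the fit with the untied spread. Every interval includes 0, and that of Klf4 is the widest, from -0.91 to 0.21 in the first fit.

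Klf4 (probe set 10513008), whose protein is a reprogramming factor and a target of LIF and STAT3 signalling, had the largest change of the 9 genes. Its log2 level was 6.95 and 6.91 without DOX and 6.73, 6.26 and 6.74 with DOX. All induced arrays lay below both uninduced arrays, and induced array 2 lay far below the other two. The means were 6.93 ± 0.024 (SD, n = 2) and 6.58 ± 0.27 (SD, n = 3), a log2 change of -0.35 with a standard error of 0.19, which is 1.27-fold lower. It did not pass the test (limma adjusted p = 0.770, 95% interval -0.91 to 0.21). With the untied spread the interval was -0.73 to 0.033. A change at least this large in either direction was seen in 0.376% of all genes. In 80.8% of those genes a value was shared between the groups, while Klf4 was among the 9.03% with 5 distinct values. The share among such genes was not computed. Without induced array 2 the change was -0.19, and with any other array left out it lay between -0.43 and -0.33.

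Klf2 (probe set 10572800), which acts beside Klf4 and is linked to the core factor OCT4, was nearly level. It was at 7.73 on both uninduced arrays and at 7.64, 7.68 and 7.73 with DOX. Induced array 3 had exactly the value of uninduced array 1, so the groups overlapped although the other induced arrays were lower. The log2 change was -0.049 ± 0.030 (standard error), with a 95% interval from -0.14 to 0.041 (limma adjusted p = 0.770), and -0.028 without induced array 1.

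Klf5 (probe set 10416777), the third naive-state KLF and a gene needed in the early embryo, was also nearly level. Its log2 levels were 8.09 and 8.02 without DOX and 8.02, 8.003 and 8.02 with DOX. Uninduced array 2 and induced arrays 1 and 3 shared a single value, and uninduced array 1 was the only array above it. The log2 change was -0.040 ± 0.024 (standard error), with an interval from -0.11 to 0.032. It was -0.0068 without uninduced array 1 and -0.073 without uninduced array 2. The smaller changes of Klf2 and Klf5 were not tested against that of Klf4.

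**Figure D3:**
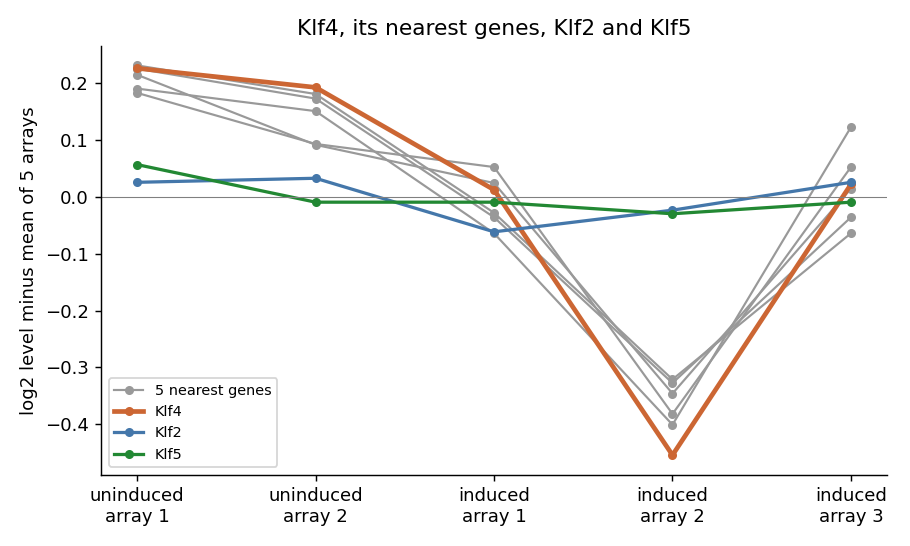
Log2 level on each of the 5 arrays (x axis) minus the gene's own mean of the 5 arrays (y axis) for Klf4 in orange, its 5 nearest genes in grey, Klf2 in blue and Klf5 in green; lines only join the points of a gene. Klf4 and its nearest genes, which were chosen for that likeness, are lowest on induced array 2, where Klf2 and Klf5 stay near their own means.

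Klf4's profile over the arrays was set against that of 19937 other genes by the root mean square difference after each gene was centred on its own mean. The nearest genes were B230307C23Rik, Zfp600, Ficd, Reg1 and H2-M10.4, at 0.063 to 0.073 on the log2 scale, where the median of all genes was 0.24. Since they were chosen for their likeness to Klf4, their low on induced array 2 and their log2 changes, from -0.34 to -0.23, follow from that choice. None of them passed the test (limma adjusted p = 0.770 for each).

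Klf3 (probe set 10522051) encodes a repressor that recruits the corepressor CtBP and is a target of other KLFs in blood cells. Its log2 level was 7.04 and 7.16 without DOX and 7.03, 7.01 and 7.04 with DOX. The induced arrays lay close together, and uninduced array 2 alone stood above them. The log2 change was -0.074 ± 0.045 (standard error), with an interval from -0.21 to 0.060. It was -0.011 without uninduced array 2 and -0.14 without uninduced array 1, so the size rested on which uninduced array was used.

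Klf6 (probe set 10403352), a widely expressed factor first known from tissue injury and as a tumour suppressor, had the largest increase of the 9 genes. Its log2 level was 5.92 and 6.12 without DOX and 6.12, 6.19 and 6.19 with DOX. Induced array 1 had exactly the value of uninduced array 2, and the other induced arrays were higher than both uninduced arrays. The log2 change was 0.15 ± 0.075 (standard error), 1.11-fold, with an interval from -0.074 to 0.37 (limma adjusted p = 0.770). The uninduced arrays were apart by 0.20, more than the change, which was 0.049 without uninduced array 1 and 0.25 without uninduced array 2.

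The remaining members, Klf9, Klf10, Klf13 and Klf16, encode factors that can repress through the SIN3A corepressor. Klf9 (probe set 10462091), a gene induced by glucocorticoid and thyroid hormone, was at 7.78 and 7.90 without DOX and at 7.73, 7.65 and 7.78 with DOX. Induced array 3 had the value of uninduced array 1 and the other induced arrays were lower. The log2 change of Klf9 was -0.12 ± 0.062 (standard error), with an interval from -0.30 to 0.063, and -0.062 without uninduced array 2. Klf10 (probe set 10428302), an early gene of TGF-beta signalling, was at 5.91 and 6.003 without DOX and at 5.70, 5.91 and 5.95 with DOX. Only induced array 1 lay below the uninduced arrays, and without it the log2 change of -0.10 became -0.028. Without uninduced array 2 it was -0.058.

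Klf13 (probe set 10564290), known for its action on chemokine expression in T lymphocytes, was at 5.20 and 5.08 without DOX and at 5.20, 5.17 and 5.29 with DOX. Its groups overlapped, and the log2 change was 0.084 ± 0.062 (standard error). It was 0.15 without uninduced array 1, 0.022 without uninduced array 2 and 0.049 without induced array 3. Klf16 (probe set 10370911) was at 6.97 and 7.10 without DOX and at 6.95, 6.91 and 7.14 with DOX. Induced array 3 was the highest and induced array 2 the lowest of all 5 arrays. Its log2 change, -0.032 ± 0.097 (standard error), was the smallest of the family and turned positive without uninduced array 2 (0.035) or induced array 2 (0.013).

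**Figure D4:**
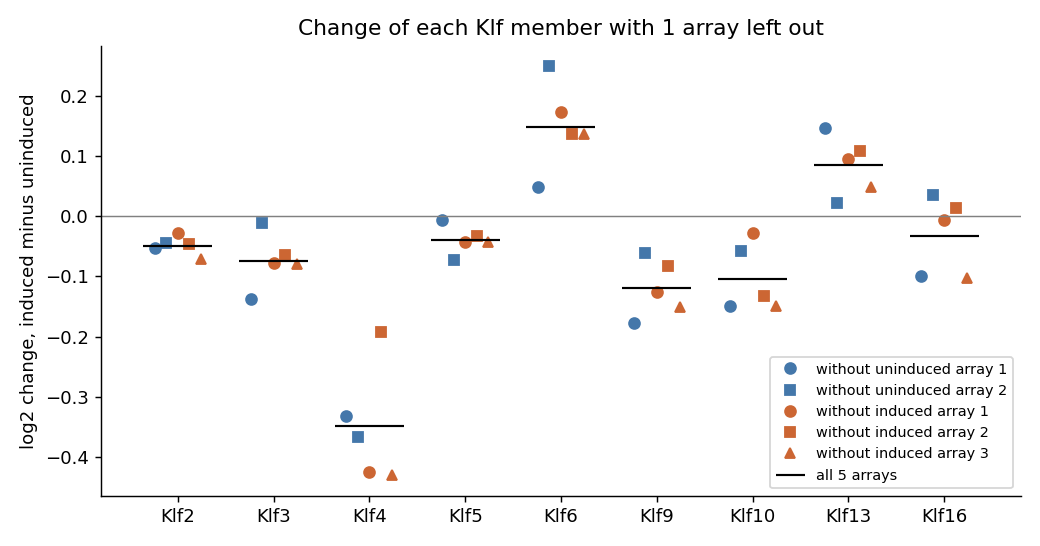
Log2 change of each Klf gene, induced minus uninduced (y axis), with all 5 arrays as a black bar and with each array left out in turn as a point. Klf4 moves from -0.35 to -0.19 without induced array 2, and the points of Klf16 fall on both sides of 0.

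The members also differed by array. The mean over the 9 genes was 6.84 and 6.89 without DOX and 6.79, 6.75 and 6.88 with DOX. Induced array 3 lay between the uninduced arrays and the other induced arrays lay below both. Induced array 2 had the lowest value of all arrays in 5 of 9 genes, namely Klf3, Klf4, Klf5, Klf9 and Klf16. The share of all genes lowest on that array was not computed, so this count is no trait of the family. Over all genes, induced array 2 correlated with the other arrays at 0.9972 to 0.9976, against 0.9977 to 0.9979 between the others. On that array Klf4 was at -0.66 from its uninduced mean, where the mean over the 9 genes was at -0.11. In 7 of the 9 genes an induced array had exactly the value of an uninduced array, Klf4 and Klf16 being the exceptions, against 80.8% of all genes.

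The other KLF and SP genes were close to level. Of 16 other KLF and SP genes measured, from Klf1 to Klf17 and Sp1 to Sp9 without Sp2, the mean was lower in 7, higher in 7 and the same in 2, and the median log2 change was 0. The range ran from -0.10 in Sp8 to 0.12 in Klf17, and none of the 16 passed the test (limma), at an unadjusted p under 0.05 as well as after adjustment. The members with the smallest p were Klf1, the erythroid factor, at -0.077, Klf14 at 0.064, Sp3 at -0.013 and Klf7 at 0.0044. In each of these the 3 induced arrays had a single value, which 1 of the uninduced arrays shared.

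Genes of the LIF pathway, both those that signal to Klf4 and other targets of STAT3, had mean differences of either sign. Of 11 genes, the mean was lower in 7, higher in 3 and the same in 1, and the median log2 change was -0.026, and none passed (limma; 0 at an unadjusted p under 0.05). The receptor gene Lifr was at -0.038, its partner Il6st at -0.065 and Stat3 at -0.050. Socs3, the feedback inhibitor that STAT3 induces, was at 6.81 on both uninduced arrays and at 6.74, 6.57 and 6.71 on the induced arrays. The log2 change of Socs3 was -0.14 ± 0.063 (standard error), with its lowest value on induced array 2. The mean of the 11 genes did not share that low, at 6.60, 6.62 and 6.59 on induced arrays 1, 2 and 3. The kinase gene Pim1, another STAT3 target, was higher by 0.21 ± 0.073, at 7.17 and 7.37 on the uninduced arrays against 7.48, 7.45 and 7.50. Its induced arrays all lay above both uninduced arrays, which in that direction was so in 1.65% of all genes.

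The ERK pathway, which opposes Klf2 and Klf4 in naive cells, had 3 of 9 measured genes lower, 5 higher and 1 level, with a median of 0.0085. Map2k1, the gene of the kinase MEK1, was at -0.18 ± 0.033 (standard error; limma adjusted p = 0.770), and Dusp6, the ERK phosphatase gene, was at 0.13 ± 0.072. None of the 9 passed, and 1, Map2k1, had an unadjusted p under 0.05.

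Partners of the KLFs in pluripotency mostly had lower means in induced cells. Of 16 genes, the mean was lower in 13, higher in 2 and the same in 1, for a median of -0.031, where 45.3% of all genes had a lower mean. Esrrb, a nuclear receptor gene that shares targets with KLF4, had the same value on all arrays, 8.26. Such a tie across all 5 arrays was seen in 15.1% of all genes. Tfcp2l1, a factor that acts beside ESRRB downstream of LIF, was at -0.013. Tbx3 was at -0.11, with induced array 2 below the other arrays, which all shared a single value. The dioxygenase gene Tet2, at -0.37, and the nuclear receptor genes Nr5a2, at -0.27, and Nr0b1, at -0.25, had larger differences, with every induced array below both uninduced arrays. None of the 16 passed (limma). These 3 had an unadjusted p under 0.05, a level that 1.55% of all genes reached.

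**Figure D5:**
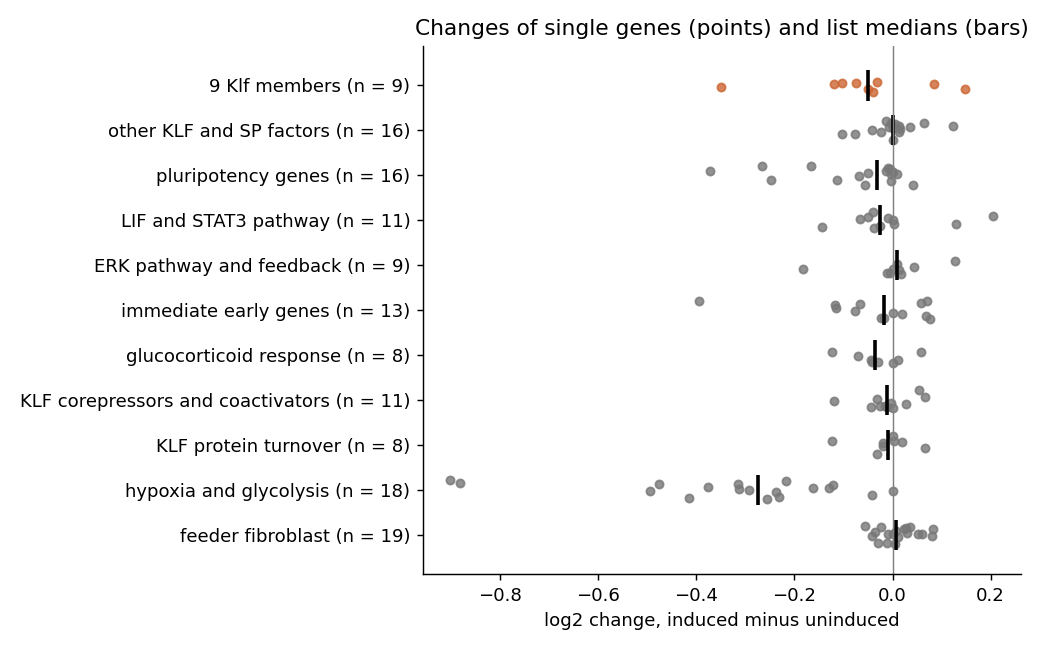
Log2 change of single genes (x axis, points) in the 9 Klf members (orange) and in gene lists around them (grey), with the median of each list as a black bar and the number of measured genes in parentheses. The Klf median of -0.049 lies close to those of the other lists except hypoxia and glycolysis, at -0.27.

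Early response and hormone genes, which share inducers with Klf4, Klf6, Klf9 and Klf10, gave no call. Of 13 immediate early genes the mean was lower in 7 and higher in 5, for a median of -0.017. Ier3 was lowest in change, at 5.26 and 5.13 on the uninduced arrays against 5.03, 4.75 and 4.61, a log2 change of -0.39 ± 0.15 (standard error). All its induced arrays lay below both uninduced arrays. Of 8 glucocorticoid response genes 5 were lower and 2 higher in mean, and Fkbp5, a standard target of the hormone receptor, was at -0.070. None of the genes of both lists passed (limma; 0 at an unadjusted p under 0.05).

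Genes for proteins that KLFs recruit or that remove KLF proteins were close to level. Of 11 corepressor and coactivator genes the mean was lower in 7, higher in 3 and the same in 1, for a median of -0.010. Hdac2, a deacetylase of SIN3 complexes, was at -0.12 ± 0.038 (standard error), and Ctbp1, the corepressor gene that works with KLF3, was at 0.066 ± 0.035. Of 8 ubiquitin ligase genes linked to KLF turnover 4 had a lower, 3 a higher and 1 the same mean, with Siah1a at -0.032 and Btrc at 0.066. None of the genes of both lists passed (limma), and 1, Hdac2, had an unadjusted p under 0.05.

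Hypoxia and glycolysis genes had the largest median change of these lists, -0.27 on the log2 scale. Their mean was 7.80 and 7.79 without DOX and 7.52, 7.43 and 7.45 with DOX, and 17 of 18 measured genes had a lower mean, against 45.3% of all genes. Of the 18, 0 passed after adjustment and 14 had an unadjusted p under 0.05 (limma), against 1.55% of all genes. In 15 of them the groups did not overlap, with DOX lower, against 3.08%. The list was chosen with earlier results of these data known, and its gene Egln3 had the lowest change of all genes, at -0.90. These shares therefore describe the list and are no independent support for a change in it. On induced arrays 1, 2 and 3, where the list mean was 7.52, 7.43 and 7.45, Klf4 was at 6.73, 6.26 and 6.74. The part of these genes in the Klf4 difference was not tested.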

How the data were processed

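The authors deposited log2 values for 35557 probe sets on 5 arrays, summarised with RMA per the submitters' processing notes. Version, probe grouping and genome build were not given in the sources used here. The log2 scale was read from the values (0.79 to 13.1). Names came from the array's annotation table: 21789 probe sets had 1 symbol, 1621 had several, and 12147 were not listed and stay unnamed here. The probe set with the highest mean stood for a gene. Groups came from the titles. All 19938 genes were tested together with limma 3.58.1 in R 4.3.3 (lmFit, eBayes without trend), with Benjamini-Hochberg adjustment, a threshold of 0.05 and no filter. A second fit (the untied spread) took limma's prior from the 1800 genes with 5 distinct values (prior SD 0.086 against 0.0050 over all genes). It combined this prior with each gene's own spread. Fits were run on simulated data that held no ties. That run does not show how the fits behave on tied values such as those deposited. Exact permutation was left out, since 5 arrays allow no p below 0.1. Lists are described by counts and medians, with no test. Named were the 9 members, Satb1, Nanog, Esrrb, Tbx3, Pou5f1, Sox2, Stat3, Lifr, up to 4 genes per list by smallest p, and the 5 genes nearest to the member with the largest change. Sp8 and Klf17 mark the ends of a range and were named after their values were seen. Promoter windows came from RefSeq (GRCm38.p6). The members and lists were chosen with earlier results of these data known.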

Additional observations from a re-analysis of the deposited data

How the results depend on the processing

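The 9 Klf genes gave 125 values under the alternatives, of which 123 kept the sign, 0 passed an adjusted p of 0.05 and 24 moved by over 1.5 times. Several alternatives change only the spread used, the genes tested or the averaging of probe sets, of which each member has 1. They leave a member's log2 change as it was, so their share of the kept signs was fixed in advance. Both values of opposite sign were of Klf16, at 0.035 without uninduced array 2 and 0.013 without induced array 2, within a range of -0.10 to 0.035 with single arrays left out. The family median stayed between -0.099 and -0.028 and the count of lower members between 6 and 7 with single arrays left out. Klf5 is tied within the induced group and has no value where only untied genes are tested. Over all genes, 2 were higher and 1 was lower at an adjusted p under 0.05. These 2 counts came to 0 and 0 when only genes above the median were tested, when arrays were centred or quantile normalized once more, with the feeder covariate, or when a change of 1.5-fold was required. The untied spread gave 1 higher and 0 lower, testing untied genes alone gave 1 higher, and an adjusted p under 0.01 gave 0 higher. Leaving out 1 array gave 0 to 1051 higher and 0 to 1097 lower genes. The large counts came from fits without an uninduced array. Those fits leave 1 array in that group, so the spread comes from the induced arrays alone. The cause of the large counts was not tested. Title numbers are not shown to pair the arrays (correlations of deviations -0.0063 and 0.0063). Fitted as a replicate block, that number left 0 genes in either direction and put the Klf median at -0.080. What limits the precision was not tested, and the deposited values hold no background signal or depth.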

Other observations

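Markers of cell types that ES cells can turn into gave no call. The primed epiblast gene Otx2, a factor of cells leaving the naive state, was at 5.73 and 5.55 on the uninduced arrays and at 5.80, 5.76 and 5.76 on the induced arrays. Its log2 change was 0.13 ± 0.066 (standard error; limma adjusted p = 0.770). Zic2, another marker of that state, was at -0.33 ± 0.18, with uninduced array 2 above all others. Fgf5, the standard marker of primed epiblast, was at -0.037. Of the 6 genes of that list 2 had a lower, 3 a higher and 1 the same mean. In the primitive endoderm list and in the trophectoderm list, each of 8 genes, 3 had a lower, 3 a higher and 2 an equal mean. None of the genes of these lists passed (limma), and 1, the trophectoderm gene Tfap2c at -0.072, had an unadjusted p under 0.05.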
